A study of Mus musculus with 15 samples.

Results

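The transcripts of 10 immediate early genes were followed in sorted hematopoietic stem cells (HSCs) of the mouse, which renew themselves and replenish all blood lineages. The genes were Fos, Fosb, Jun, Junb and Jund, which encode subunits of the transcription factor AP-1, Egr1, Egr2 and Egr3, which encode zinc finger transcription factors, and Ier2 and Atf3. They were picked by name, with no cutoff on their values but with earlier results of these data known, and made up 10 of the 46120 genes of the deposited tables. There were 15 libraries of 100 sorted cells each. All cells came from the bone marrow of wild-type C57BL/6 mice aged 8 to 10 weeks, with no transgene or deletion named in the labels. One experiment held fresh HSCs from mice at day 4 after 5-fluorouracil (5-FU day4, n = 4), a pyrimidine analog that kills dividing cells, and from mice left untreated (Untreated, n = 4). The other held cultured HSCs that had received nifedipine, a blocker of L-type calcium channels (Nifedipine, n = 4), or no such drug (Control, n = 3), and that were sorted after at most 3 divisions. No source used here gives the doses, the length of the culture, the time between cell collection and lysis, or whether replicates came from separate mice or cultures. The p-values therefore speak only of the spread among these libraries, and that spread may be technical.

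Immediate early genes are transcribed within minutes of a signal without new protein synthesis, and their RNAs are short-lived. Growth factors, calcium entry, stress and the handling of cells reach them through ERK, JNK and p38 kinases, which act on factors such as SRF with its TCF partners and CREB. Fos proteins bind DNA only when paired with a Jun protein, whereas Jun proteins can also pair with each other, so that the supply of both families sets which AP-1 dimers can form. In mouse HSCs, Egr1 is known from knockout animals as a gene that restrains division and holds stem cells in the marrow, and loss of Junb in mice leads to expansion of HSCs and myeloid cells.

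On the mm10 build of the deposited tables, Fos spanned chr12:85473901-85477269, Fosb chr7:19302696-19310226, Jun chr4:95049036-95052222, Junb chr8:84976909-84978748 and Jund chr8:70697739-70700616. Egr1 lay at chr18:34861207-34864956, Egr2 at chr10:67534453-67547493, Egr3 at chr14:70077445-70082613, Ier2 at chr8:84661331-84662852 and Atf3 at chr1:191170296-191183333. Jund and Egr2 had another copy on an alternate scaffold, and the reads of both copies were added up. Jund reads were divided evenly between its copies, which have the same exon length, with 2522 reads on the chromosome and 2599 on the scaffold over all libraries. For Egr2 the copies differed. The chromosomal feature, with 9365 exon bases, shares 2983 bases with Ado, a gene on the opposite strand, and the library kit does not mark strand. Its scaffold copy of 2965 exon bases had 3 reads in 5-FU HSCs, against 193 in untreated HSCs, and 0 in all 7 cultured libraries. In the same cultured libraries the chromosomal Egr2 feature had 159 reads with nifedipine and 201 in the controls, and Ado stood at 28.3 and 27.0 CPM (reads scaled to library size), so the part of Ado in the Egr2 values was not tested.

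Libraries held between 6171730 (Untreated replicate 2) and 26673045 exon reads. In levels below, CPM are reads scaled to the library's exon reads after normalization over all 15 libraries. The log2 fold changes come from a fit of the compared libraries alone. Their standard errors (SE) are approximate, being the size of the change divided by the square root of its F statistic. A gene was called at a Benjamini-Hochberg adjusted p of 0.05 or less in edgeR's quasi-likelihood test over all genes. All 10 HSC markers had reads in every group and summed to 3218 to 3486 CPM after 5-FU, 2229 to 2494 with nifedipine, 1352 to 1440 in the controls and 4637 to 4985 in untreated HSCs. Endothelial and stromal markers were uneven among fresh libraries, at 99.6 to 452 summed CPM after 5-FU and 142 to 1746 in untreated HSCs, with none of the 10 markers at 0 in either group. In the cultured libraries they summed to 134 to 169 CPM with nifedipine and 146 to 171 in the controls, with Cxcl12 and Col3a1 at 0. Most of the cultured sums came from Pecam1, at a mean of 120 CPM with nifedipine and 131 CPM in the controls. Erythroid markers also varied, at 244 to 329 summed CPM after 5-FU and 63.0 to 2101 in untreated HSCs, where replicates 2 and 4 held most. In bulk libraries, fewer cells that express a gene and less RNA per cell cannot be told apart.

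The proximal promoters of 7 of the 10 genes were taken from RefSeq entries of the GRCm38.p6 assembly. The 250 bases before the start of transcription were searched for sites of the factors named above. The searched letters were TGACGT and the palindrome TGACGTCA that contains it (CREB and ATF), TGANTCA (AP-1), the CArG box (SRF), GCGNGGGCG (EGR) and TATAAA, all on both strands except the last, which was read along the gene. They are held by 6.47%, 1.55%, 6.75%, 1.47%, 4.70% and 7.59% of the 32851 mouse promoters of the same length, in that order. The windows with a match are shown (1 per gene), and a link between the matches and the levels of the genes was not tested. Matches are in capitals, and the genes are Fos (chr12:85473640-85473889, plus strand), Fosb (chr7:19310046-19310295, minus strand), Egr2 (chr10:67537619-67537868, plus strand, the third of 5 listed starts) and Atf3 (chr1:191183334-191183583, minus strand).
Fos: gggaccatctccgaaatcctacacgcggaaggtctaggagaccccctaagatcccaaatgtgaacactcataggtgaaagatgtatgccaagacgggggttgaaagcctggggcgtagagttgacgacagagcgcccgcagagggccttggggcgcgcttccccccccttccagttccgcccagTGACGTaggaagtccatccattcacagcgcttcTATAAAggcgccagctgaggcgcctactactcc
Fosb: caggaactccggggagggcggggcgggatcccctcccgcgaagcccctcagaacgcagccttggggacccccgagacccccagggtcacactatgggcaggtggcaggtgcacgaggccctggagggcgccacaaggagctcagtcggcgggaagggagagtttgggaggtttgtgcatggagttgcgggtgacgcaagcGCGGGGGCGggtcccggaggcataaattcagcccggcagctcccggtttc
Egr2: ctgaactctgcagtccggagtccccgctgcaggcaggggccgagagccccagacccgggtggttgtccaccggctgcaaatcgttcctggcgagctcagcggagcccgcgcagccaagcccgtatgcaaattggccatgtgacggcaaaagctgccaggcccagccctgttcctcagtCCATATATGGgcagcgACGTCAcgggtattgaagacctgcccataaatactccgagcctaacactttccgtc
Atf3: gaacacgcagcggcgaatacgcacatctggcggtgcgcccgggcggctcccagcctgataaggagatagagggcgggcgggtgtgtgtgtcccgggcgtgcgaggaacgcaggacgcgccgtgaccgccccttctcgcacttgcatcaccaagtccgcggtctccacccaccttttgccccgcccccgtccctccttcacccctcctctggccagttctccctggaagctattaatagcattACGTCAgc
Counted back from the start of transcription, the Fos window had TGACGT at positions -66 to -61 and TATAAA at -33 to -28. The Fosb window had an EGR site at -50 to -42. In the Egr2 window a CArG box lay at -72 to -63 and the reverse complement of TGACGT at -56 to -51, and the Atf3 window had that reverse complement at -8 to -3. No searched letters were found in the windows of Jun, Junb and Jund. Only exact letters within these 250 bases were searched. Sites that differ by a base or lie farther upstream would be missed. The entries of Egr1, Egr3 and Ier2 are not used here.

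**Figure D1:**
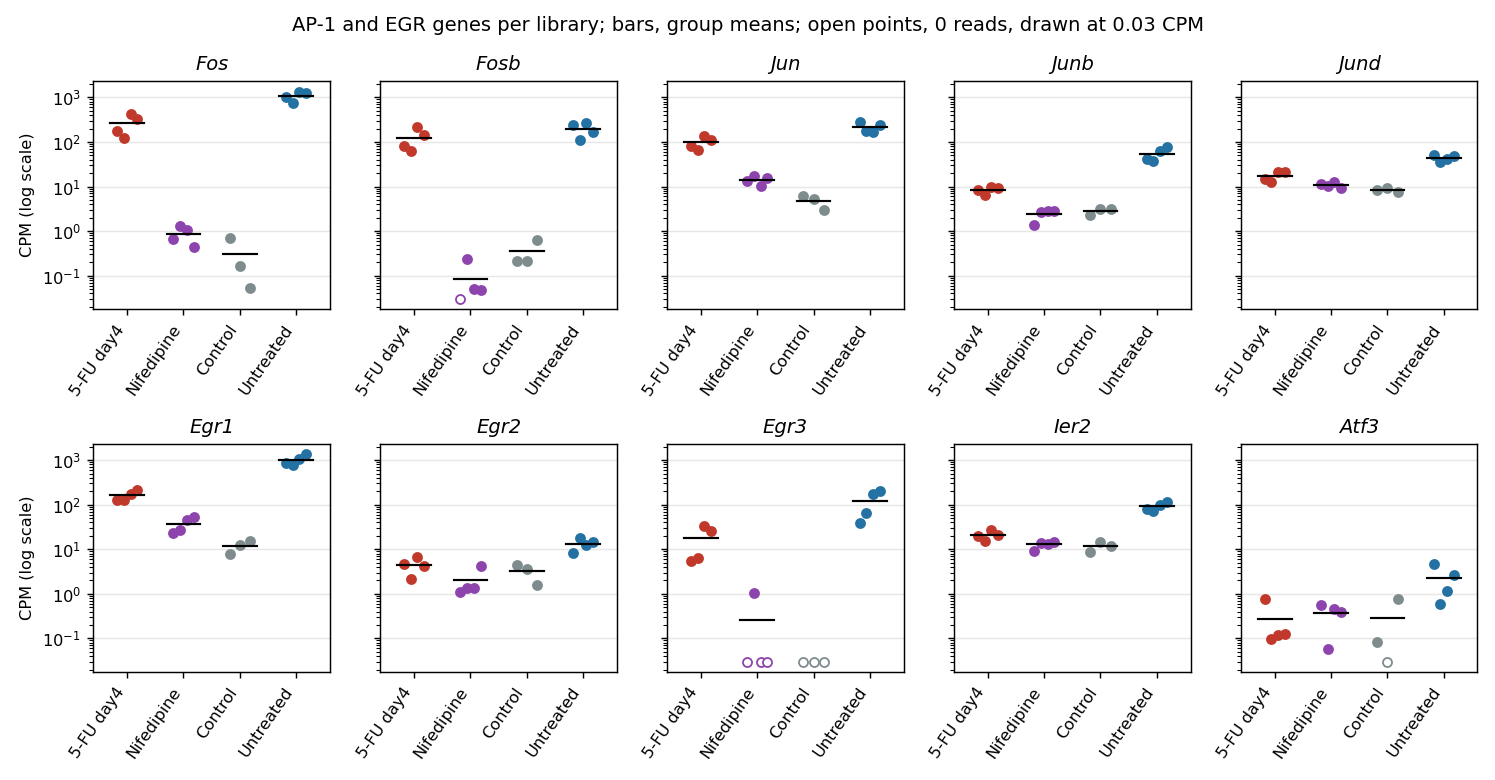
Level of each of the 10 genes in every library, in CPM on a log scale, with horizontal bars for group means and open points for libraries with 0 reads. All 10 genes were highest in untreated HSCs, and Fos, Fosb and Egr3 spanned more than the others, with Egr3 at 0 in all 3 Control libraries.

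The first comparison set HSCs driven toward division by 5-FU against HSCs at rest. At day 4 after 5-FU, 9 of the 10 genes were lower and 0 were higher, where 23.8% of 13382 tested genes were called lower and 26.8% higher. Ranges did not overlap for 8 of them, against 23.3% of all tested genes that were lower without overlap. The median log2 fold change of the 10 was -2.04, against -0.02 over all tested genes, whose 5th percentile was -1.31. A called fall with a log2 fold change of -2 or less was seen for Junb, Egr1, Egr3, Ier2 and Atf3 and for 1.32% of all genes. The 9 calls held in each fit that left out 1 library and in the fit without both Untreated replicate 3 and 5-FU replicate 4.

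Fos, the best known partner of Jun in AP-1, was measured at 180, 124, 422 and 333 CPM in 5-FU HSCs, against 998, 764, 1317 and 1233 CPM in untreated HSCs. The highest 5-FU library was below the lowest untreated one, and Fos fell by 2.00 ± 0.34 (log2, SE; adjusted p = 0.000671). Fosb, which also gives rise to a short splice form, had 80.9, 62.1, 214 and 146 CPM after 5-FU, against 245, 110, 262 and 171 CPM in untreated HSCs. These ranges overlapped and Fosb did not pass, at -0.62 ± 0.37 (adjusted p = 0.184). It did pass at -1.01 without 5-FU replicate 3 (adjusted p = 0.0344), the library with the highest Fosb level after 5-FU. On the length-scaled RPKM values, Fos made up 78.8% to 81.2% of the Fos plus Fosb sum after 5-FU, against 88.5% to 93.2% in untreated HSCs, and these ranges did not overlap.

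The Jun genes fell together, with Junb ahead. Junb, which often opposes Jun in the control of cell division, had 154, 65, 165 and 145 reads after 5-FU, against 739, 255, 1118 and 1173 reads in untreated HSCs. Scaled to library size these were 8.45 ± 1.43 CPM and 54.9 ± 18.4 CPM (SD, n = 4 each), with no overlap, and Junb fell by 2.67 ± 0.23 (log2, SE; adjusted p = 1.18e-05). Jun, the subunit activated by JNK, stood at 82.1, 66.7, 137 and 113 CPM, against 287, 176, 168 and 237 CPM in untreated HSCs, with a gap between the groups, and fell by 1.09 ± 0.23 (adjusted p = 0.00241). Jund, the Jun gene that is expressed most steadily across tissues, was at 15.1, 12.6, 21.1 and 20.7 CPM, against 52.1, 34.9, 42.1 and 48.8 CPM, and fell by 1.33 ± 0.18 (adjusted p = 0.000161). Within the summed Jun, Junb and Jund RPKM, Junb held 9.44% to 13.0% after 5-FU, against 17.1% to 34.0% in untreated HSCs. The share of Jun was 72.3% to 77.4%, against 51.6% to 69.0%, while Jund held 13.2% to 15.2%, against 12.7% to 14.3%.

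Of the EGR genes, Egr1 had 128, 126, 178 and 213 CPM after 5-FU, against 864, 779, 1067 and 1364 CPM in untreated HSCs. It fell by 2.63 ± 0.21 (log2, SE; adjusted p = 7.94e-06), with the lowest untreated library far above the highest 5-FU library. Egr3, which is often induced together with Egr1 and Egr2, varied most of the EGR genes within both groups, at 5.53, 6.52, 33.1 and 25.5 CPM after 5-FU, against 38.1, 66.7, 177 and 206 CPM. The groups still did not overlap, and Egr3 fell by 2.74 ± 0.65 (adjusted p = 0.00507). Egr2, known from hindbrain and Schwann cell development, was low at 4.64, 2.17, 6.79 and 4.25 CPM, against 8.08, 18.1, 12.7 and 14.2 CPM. It fell by 1.52 ± 0.33 (adjusted p = 0.00325), and stood at -1.04 (adjusted p = 0.0155) for the chromosomal feature alone, the one that overlaps Ado. The scaffold copy of Egr2 had 3 reads after 5-FU, against 193 in untreated HSCs, so the size of the Egr2 fall depends on the copy.

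Ier2, a nuclear protein made early after growth stimuli, had 20.3, 15.3, 27.4 and 21.0 CPM after 5-FU, against 81.8, 72.7, 97.1 and 114 CPM in untreated HSCs. It fell by 2.09 ± 0.18 (log2, SE; adjusted p = 1.05e-05), with no overlap. Atf3, a stress-induced relative of CREB that pairs with Jun proteins, rested on few reads, with 14, 1, 2 and 2 reads after 5-FU, against 84, 4, 20 and 41 reads in untreated HSCs. The ranges in CPM overlapped, since 5-FU replicate 1 at 0.774 CPM lay above Untreated replicate 2 at 0.597 CPM. Atf3 fell by 2.91 ± 0.81 (adjusted p = 0.0116), and the value was -4.21 without 5-FU replicate 1 and -2.30 without Untreated replicate 1.

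**Figure D2:**
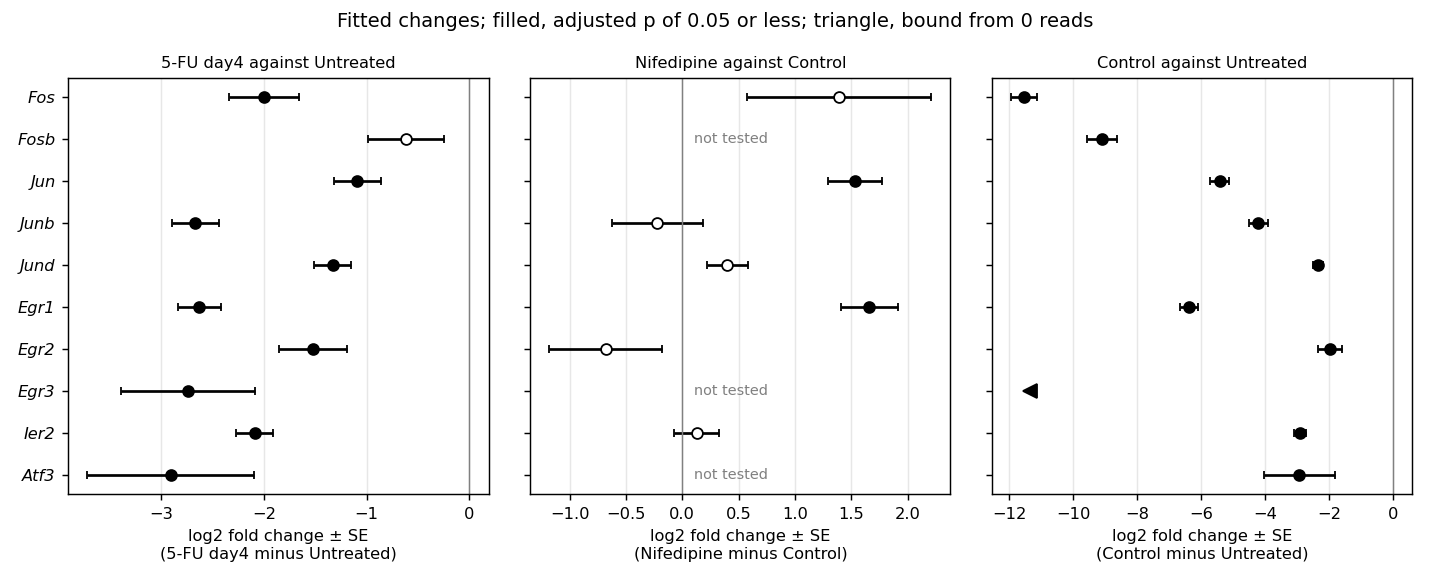
Log2 fold changes of the 10 genes with SE bars in the 3 comparisons, each panel on its own scale, with filled points for calls and a triangle for the bound of Egr3. After 5-FU only Fosb is open, with nifedipine only Jun and Egr1 are filled, and Control against Untreated spans from -1.98 for Egr2 to -11.54 for Fos.

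Within the 5-FU group the genes moved with the library: 5-FU replicate 3 was the highest for 8 of the 10 genes and 5-FU replicate 2 the lowest for 9. Summed over the 10 genes, the 5-FU libraries had 525, 422, 1049 and 887 CPM, against 2620, 2059, 3209 and 3467 CPM in untreated HSCs. Untreated replicate 2, the shallowest library, was lowest for 7 genes. It was also the one with the most endothelial and stromal transcript, at 1746 CPM over the 10 markers, with Cxcl12 at 1161 CPM. Untreated replicate 3 had the least among untreated libraries, at 142 CPM with Cxcl12 at 0.629 CPM, and held the highest Fos and Fosb levels of all libraries. Untreated replicates 1 and 4 lay between, at 518 and 509 CPM over these markers, and replicate 4 had the highest sum of the 10 genes. A link between these markers and the 10 genes was not tested. Mitosis genes, by contrast with the 10 genes, summed to 2580 to 3013 CPM after 5-FU, against 164 to 689 CPM in untreated HSCs. Heat shock genes summed to 4288 to 4909 CPM, against 2612 to 2806 CPM, mostly from Hspa8 and Hsp90aa1. Of 7 tested heat shock genes 4 rose and 1 fell, Dnajb1 at -0.77 (log2). Hspa1a and Hspa1b did not pass. The part of either list in the falls of the 10 genes was not tested.

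Other immediate early genes gave 18 falls and 0 rises among 28 tested after 5-FU, where 23.8% of all genes fell and 26.8% rose. The median log2 fold change of the 28 was -1.21. The antiproliferative gene Btg2 led, at 10.5 ± 3.85 CPM after 5-FU and 199 ± 58.2 CPM in untreated HSCs (SD, n = 4 each), and fell by 4.19. Dusp2, a nuclear phosphatase of ERK, fell by 2.17, the RNA-binding protein gene Zfp36l1 by 0.96 and the survival gene Mcl1 by 0.73 on the log2 scale. Of 12 tested AP-1 relatives, 4 fell and 2 rose. Maff, a small MAF protein, fell by 1.28, Mafk by 0.72 and Atf7 by 0.42. Fosl1, a Fos relative that lacks the strong activation domain of Fos, rose by 2.45 ± 0.57 (adjusted p = 0.00442), at 3.02 ± 1.02 CPM after 5-FU and 0.591 ± 0.409 CPM in untreated HSCs. Nab1, a corepressor that binds EGR proteins, rose by 0.24, and Nab2 did not pass at 0.07, while scaling by the read total behind the deposited RPKM called 2 genes of this list higher.

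Among 17 upstream factors of the SRF, TCF, MRTF and CREB families, 11 fell and 2 rose after 5-FU. Over all tested genes 23.8% fell and 26.8% rose. The factors of smallest p gave a rise of Atf1 by 0.58 and falls of Elk3 by 0.39, Crebbp by 0.29 and Ep300 by 0.27. The change of greatest size among the 13 was in Crem, a CREB relative, which fell by 1.11 ± 0.27 (log2, SE; adjusted p = 0.00544). With libraries scaled by the read total behind the deposited RPKM, this became 2 falls and 4 rises, and with an offset for exon length 4 falls and 4 rises. The RPKM scaling moved the median of all genes to 0.17 and gave 5149 higher and 1844 lower calls over all genes, in place of 3580 and 3184, with the 9 immediate early genes still lower. Of 19 tested ERK, JNK and p38 kinase genes, 6 rose and 4 fell, with Mapk11 up by 1.58, while Map2k6 fell by 0.66. Both kinase counts were close to the 26.8% of all tested genes called higher and the 23.8% called lower.

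The second comparison asked what the calcium channel blocker did in culture. With nifedipine, Egr1 and Jun rose about 3-fold, which made 2 of 7 tested genes called higher and 0 called lower, where 25.8% of 12805 tested genes were called higher and 24.2% lower. The share called was thus close to that of all genes, while 7.28% of all genes were called higher with a log2 fold change of 1 or more, as both were. With Jund, 3 genes were higher with no overlap between the groups, against 25.7% of all tested genes. The median of the 7 was 0.40, against 0.02 over all genes. The other 3 genes, Fosb, Egr3 and Atf3, had too few reads to enter the test.

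Egr1 had 23.0, 27.4, 46.2 and 52.3 CPM with nifedipine, against 7.99, 12.3 and 15.2 CPM in the controls. Every treated library was above every control, and the log2 fold change was 1.66 ± 0.25 (SE; adjusted p = 2.83e-05). Jun had 13.2, 17.2, 10.4 and 15.2 CPM, against 6.09, 5.39 and 2.96 CPM in the controls, with a log2 fold change of 1.53 ± 0.24 (adjusted p = 4.11e-05). Both calls held whichever library was left out, with values from 1.44 to 1.89 for Egr1 and from 1.28 to 1.74 for Jun. The Jun share of the summed Jun, Junb and Jund RPKM was 35.1% to 51.2% with nifedipine, against 17.8% to 31.7% in the controls, and that of Junb was 8.34% to 16.6%, against 20.6% to 31.8%.

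Jund also separated the groups, at 11.4, 10.5, 12.9 and 9.30 CPM with nifedipine and 8.28, 9.26 and 7.59 CPM in the controls, but the lowest treated library was only just above the highest control. It did not pass at 0.40 ± 0.18 (log2, SE; adjusted p = 0.0785). Another filter kept only genes that reached 10 CPM in as many libraries as the smaller group had. Under it the adjusted p of Jund was 0.0494. Jund met that filter only through nifedipine libraries, with every control below 10 CPM, so this value adds no support for a rise. Junb overlapped between groups, at 1.35, 2.75, 2.84 and 2.84 CPM with nifedipine and 2.28, 3.21 and 3.07 CPM in the controls (log2 fold change -0.22 ± 0.40, adjusted p = 0.676). Ier2 did too, at 9.05, 14.1, 13.3 and 14.9 CPM and 8.83, 14.3 and 12.1 CPM (0.13 ± 0.20, adjusted p = 0.615). Neither difference was detectable beyond this spread.

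Fos and Egr2 turned on single libraries. Fos had 14, 22, 21 and 9 reads with nifedipine, against 17, 3 and 1 reads in the controls. It did not pass at 1.39 ± 0.82 (log2, SE; adjusted p = 0.170), but without Control replicate 1, which held most of the control reads, the value was 2.93 (adjusted p = 0.0433). Egr2 had 24, 23, 27 and 85 reads with nifedipine, against 103, 68 and 30 reads, at -0.68 ± 0.50 (adjusted p = 0.280). Without Nifedipine replicate 4 it stood at -1.33 (adjusted p = 0.0301). Fosb had 0, 4, 1 and 1 reads with nifedipine, against 5, 4 and 12 reads. Egr3 had 18 reads in Nifedipine replicate 2 and 0 in the other 6 cultured libraries. Atf3 had 12, 1, 9 and 8 reads, against 2, 0 and 15 reads. With no filter on low counts, none of these 3 passed, with adjusted p-values of 0.268 for Fosb, 0.0621 for Egr3 and 0.85 for Atf3.

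**Figure D3:**
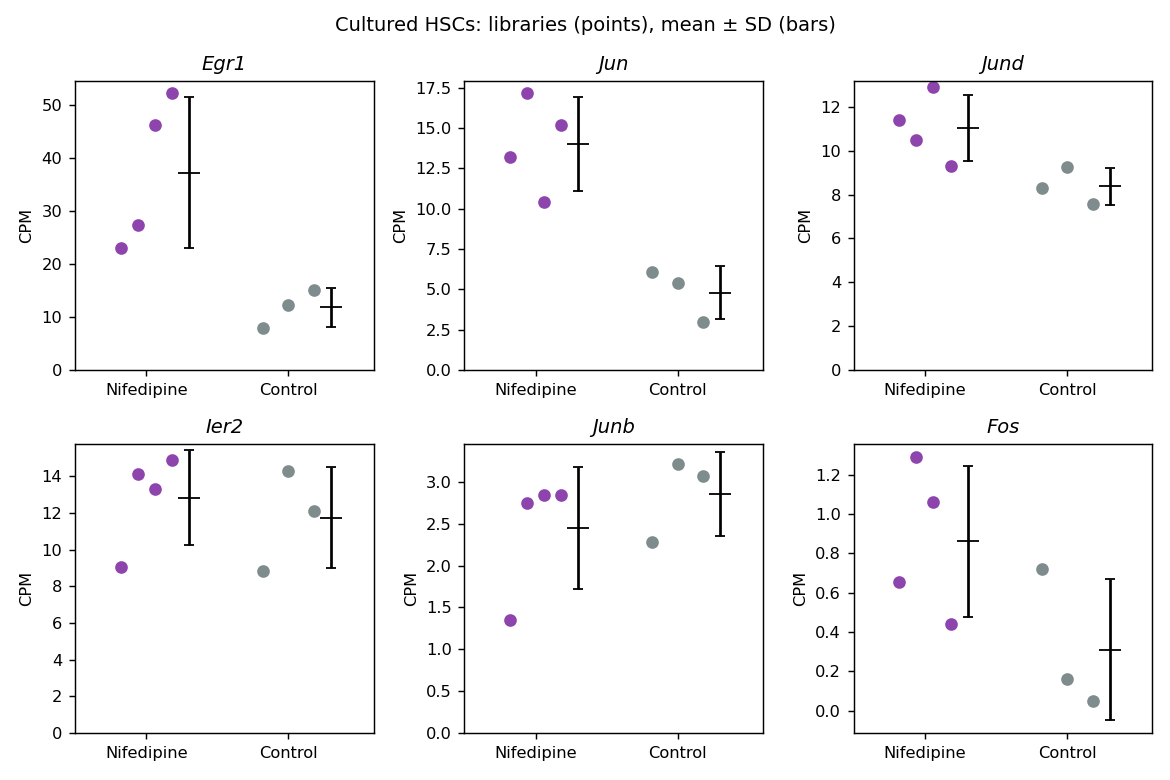
Levels of 6 genes in the cultured libraries, in CPM on linear axes with points for libraries and bars for mean ± SD. Egr1 and Jun separate the nifedipine libraries from the controls, Jund separates them narrowly, and Ier2, Junb and Fos overlap.

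Other immediate early genes rose in 12 of 28 tested cases with nifedipine and fell in 0, where 25.8% of all genes rose and 24.2% fell. The median of the 28 was 0.37. Dusp6, a phosphatase of ERK, stood at 76.6 ± 5.21 CPM with nifedipine and 25.8 ± 3.22 CPM in the controls (SD, n = 4 and 3), a rise of 1.57 ± 0.10 (log2, SE; adjusted p = 1.25e-09). Klf6 rose by 1.34, Ier3 by 1.03 and the RNA-binding protein gene Zfp36l2 by 0.63. Of 10 tested AP-1 relatives, 7 rose and 0 fell. Jdp2, a Jun dimerization protein that represses AP-1 targets, was at 33.5 ± 4.23 CPM with nifedipine and 10.2 ± 1.40 CPM in the controls (1.71 ± 0.14, adjusted p = 2.61e-08). Fosl2 rose by 0.91, Atf7 by 0.68 and Mafg by 0.27. When only genes of at least 10 CPM were tested, the count was 4 rises and 0 falls.

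Upstream, 3 of 17 SRF, TCF, MRTF and CREB family genes rose with nifedipine and 3 fell, where 25.8% of all genes rose and 24.2% fell. The called genes included Mkl2, a coactivator of SRF, up by 0.63, and Srf itself, down at -0.64. Of 19 tested kinase genes 6 rose and 4 fell, both counts close to the shares of all genes. Rps6ka5, a nuclear kinase that phosphorylates CREB and histone H3, led at 0.85. The kinase split was 4 and 1 when scaled by the RPKM read total and 5 and 1 without Control replicate 3. Of 6 tested heat shock genes 5 fell, with sums of 3021 to 3694 CPM with nifedipine and 6178 to 6804 CPM in the controls. Hsp90aa1 was the clearest, at -1.15 ± 0.06 (log2, SE; adjusted p = 1.51e-10). Of 12 mitosis genes 7 fell and 1 rose, with sums of 1866 to 2132 CPM and 2841 to 3020 CPM, and 5 fell and 0 rose when all groups shared 1 fit. Marker sums differed as well. The summed level of the 10 HSC markers was higher in every nifedipine library than in any control, as given above, although Slamf1 fell by 1.02 on the log2 scale. Myeloid markers summed to 211 to 235 CPM with nifedipine and 62.5 to 80.6 CPM in the controls, with Mpo, Elane, Ly6c2, S100a8 and S100a9 at 0 in both groups and most of the sum from Lyz2, at 216 ± 10.1 CPM and 67.5 ± 7.89 CPM (SD, n = 4 and 3). Erythroid markers summed to 99.4 to 159 CPM with nifedipine and 202 to 252 CPM in the controls. Megakaryocyte markers summed to 123 to 257 CPM with nifedipine and 265 to 438 CPM in the controls, and 4 of the 5 tested fell, with Itga2b at -2.50 (log2, adjusted p = 2.20e-10). Lymphoid markers were low, at 7.42 to 10.4 CPM with nifedipine and 12.1 to 13.9 CPM in the controls, and Ms4a1, Cd3e, Cd3g and Il7r were at 0 in both groups. The part of these lists in the rises of Egr1 and Jun was not tested.

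The cultured control HSCs were last set beside the fresh untreated HSCs. Culture and experiment cannot be told apart here, so the values describe both together. All 10 genes were lower in the controls, where 36.2% of 13518 tested genes were called lower, and 9 had no overlap, against 37.4% of all genes. A called log2 fold change of -2 or less was reached by all except Egr2, and by 12.7% of all genes. Their median log2 fold change was -4.83, also with Egr3 set at its bound, against -0.05 over all genes and a 5th percentile of -3.76. Scaling by the RPKM read total moved the median of all genes to 0.18 and gave 5835 higher and 3877 lower calls, in place of 4842 and 4889, with all 10 genes still lower.

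Fos nearly vanished, with 21 reads in 3 control libraries, against 64996 reads in 4 untreated libraries. Its level was 0.718, 0.163 and 0.0520 CPM in the controls, against 764 to 1317 CPM in untreated HSCs. It fell by 11.54 ± 0.40 (log2, SE; adjusted p = 2.55e-08), and stood at -13.15 without Control replicate 1. Egr3 had 0 reads in the controls, against 7392 in untreated HSCs, which makes it at least 2625-fold lower with a floor of 3 reads over the group (adjusted p = 7.85e-05). It did not pass in limma-voom (adjusted p = 0.117). Fosb, at 0.211, 0.218 and 0.624 CPM, against 110 to 262 CPM, fell by 9.09 ± 0.47 (adjusted p = 1.71e-07), and the value was -9.74 without Control replicate 3. Egr1 fell by 6.39 ± 0.29 (adjusted p = 8.30e-08) and Jun fell by 5.43 ± 0.29 (adjusted p = 1.94e-07). Junb fell by 4.22 ± 0.29 (adjusted p = 1.07e-06).

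The falls were smallest for Ier2, Jund and Egr2. Ier2 averaged 11.8 ± 2.76 CPM in the controls (SD, n = 3) and 91.4 ± 18.1 CPM in untreated HSCs (SD, n = 4), with a log2 fold change of -2.92. Jund averaged 8.38 ± 0.838 and 44.5 ± 7.60 CPM in these groups, with a log2 fold change of -2.36. Egr2 averaged 3.21 ± 1.46 and 13.3 ± 4.12 CPM, at -1.98, and at -1.47 for the chromosomal feature alone, which overlaps Ado. The scaffold copy of Egr2 had 0 reads in the controls, against 193 in untreated HSCs. The size of the Egr2 fall thus depends on the copy, and the part of Ado in it was not tested. Atf3, with 17 reads in the controls and 149 in untreated HSCs, passed narrowly at -2.94 ± 1.11 (log2, SE; adjusted p = 0.0360). It lost its call without Untreated replicate 1 (adjusted p = 0.0841), Control replicate 1 (0.132) or Control replicate 2 (0.0877), and was at -5.37 without Control replicate 3.

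Of 28 other immediate early genes 24 were lower and 1 was higher in the controls, where 36.2% of all tested genes were called lower. Nearly as many of all genes were called higher, as given above, and the counts of each list stand beside these shares. The median of the 28 was -2.68. Dusp1, a nuclear MAP kinase phosphatase, fell by 5.30 on the log2 scale, and Zfp36, which speeds the decay of many short-lived RNAs, fell by 4.57. Ppp1r15a, which restores translation after stress, fell by 4.00 and Dusp2 fell by 3.54. AP-1 relatives gave 7 falls and 4 rises of 12, and 5 falls and 2 rises when only genes of at least 10 CPM were tested. Maf fell by 6.14, Maff fell by 3.08, Batf2 fell by 2.27 and Atf7 fell by 0.93. Nab1 rose by 0.72 and Nab2 fell by 0.85. The upstream SRF, TCF, MRTF and CREB family had 9 falls and 3 rises of 17, with Atf1 up by 1.09 and Mkl2 down at -0.97, and the kinases 10 rises and 6 falls of 19, with Map2k3 up by 1.31. Mitosis genes rose in 12 of 12 cases, and heat shock genes rose in 4 and fell in 3 of 8.

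**Figure D4:**
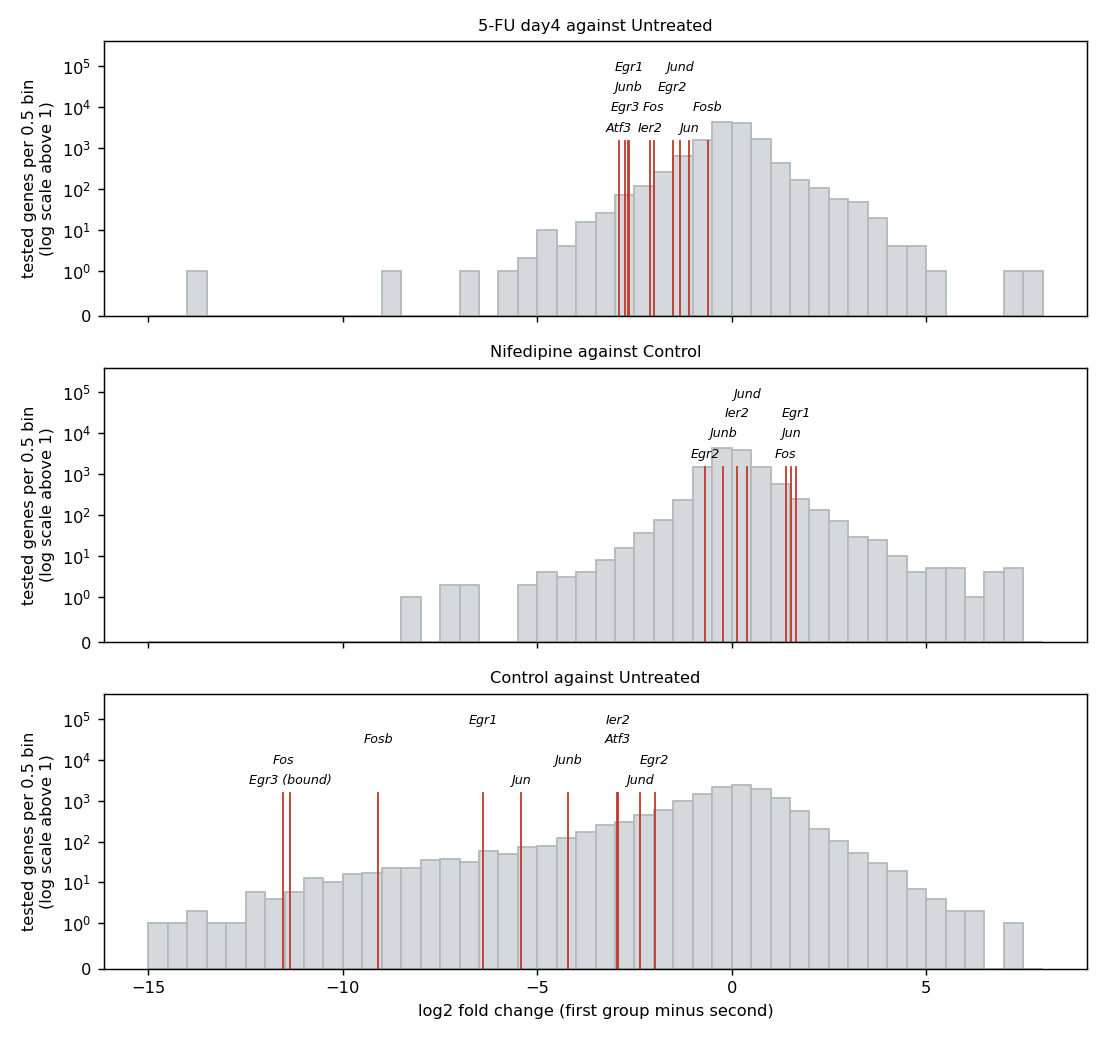
Log2 fold changes of all tested genes in bins of 0.5 (grey, on an axis that is logarithmic above 1 gene), with red lines for the immediate early genes. After 5-FU the 10 genes lie between -2.91 and -0.62, with nifedipine the 7 tested genes lie between -0.68 and 1.66, and in Control against Untreated all 10 lie left of the median of -0.05.

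Across the 4 groups, levels ran in the order untreated, 5-FU, nifedipine and control for Fos, Jun, Jund, Egr1, Egr3 and Ier2. For Fosb, Junb and Egr2 the controls stood above the nifedipine libraries, with overlapping ranges. Neighbours in this order did not overlap at any step for Jun and Egr1. The untreated and 5-FU ranges overlapped for Fosb, the 5-FU and nifedipine ranges for Jund, the 5-FU and control ranges for Egr2, and the nifedipine and control ranges for Fos, Fosb, Junb, Egr2, Egr3 and Ier2. Atf3 was highest in untreated HSCs and did not separate the other 3 groups.

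Scaled for length, Fos and Egr1 led in untreated HSCs at 142 ± 33.5 and 91.1 ± 22.2 RPKM (SD, n = 4), at rank 55 and rank 87 of 16943 genes with a read. After 5-FU they still led the 10 genes, at 40.4 ± 20.1 and 16.8 ± 4.10 RPKM (SD, n = 4) and at rank 300 and rank 1035 of 16647. With nifedipine Egr1 led at 4.23 ± 1.72 RPKM, whereas Fos was sixth at 0.140 ± 0.0553 RPKM. In the controls Ier2 led at 2.59 ± 0.535 RPKM (SD, n = 3), ahead of Egr1 at 1.29 ± 0.396 RPKM. The make-up of the AP-1 genes differed accordingly. The ratio of summed Fos and Fosb to summed Jun, Junb and Jund RPKM was 2.60 to 4.60 after 5-FU, against 4.13 to 6.81 in untreated HSCs, and 0.0233 to 0.0638 with nifedipine, against 0.0200 to 0.0658 in the controls. On this scale Fos and Fosb together exceeded the Jun genes in every fresh library and were a small minority in every cultured one. Jund, only 12.7% to 14.3% of the Jun sum in untreated HSCs, held 47.7% to 50.4% in the controls.

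**Figure D5:**
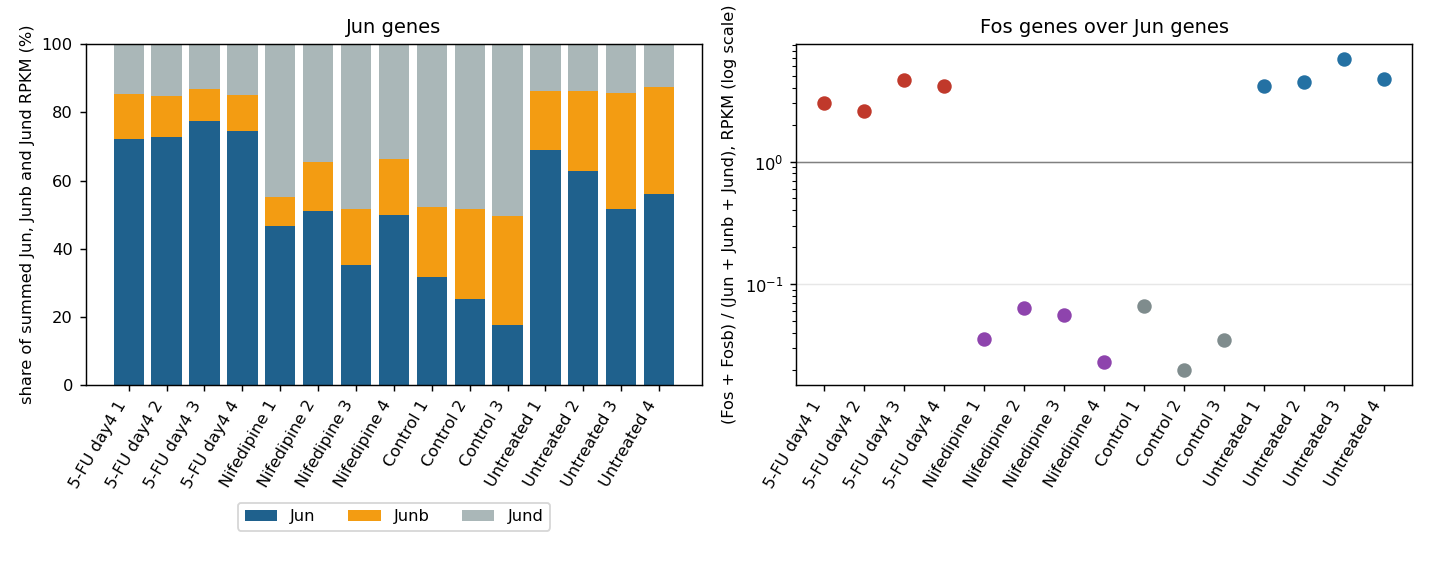
Left, the shares of Jun, Junb and Jund in their summed RPKM in each library, in percent. Right, the ratio of summed Fos and Fosb to summed Jun, Junb and Jund RPKM on a log scale, which lies between 2.60 and 6.81 in fresh libraries and between 0.0200 and 0.0658 in cultured ones.

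The genes most alike in pattern were sought among 9981 other genes by the root mean square difference of centred log2 CPM over the 15 libraries. This measure counts the size of a change as well as its direction, so a gene with a wide range lies far from most others. Nearest to the mean of the 10 genes was Dusp1, at a difference of 0.34, with 99.0 ± 46.6 CPM after 5-FU, 8.59 ± 2.76 CPM with nifedipine, 6.44 ± 1.48 CPM in the controls and 265 ± 50.2 CPM in untreated HSCs (SD, n = 4, 4, 3 and 4). Zfp831, Klf2, Smtnl1 and Zfp618 followed at 0.46 to 0.47. Of the 10 genes themselves, Jun was nearest to their mean at 0.55 and Fos farthest at 2.52. For Egr1 the nearest were Cisd3b, Flt3, Sgsm1, Mill2 and Zfp36, at 0.62 to 0.72, and Jun at 0.77 was the nearest of the 10. By this measure Fos, with its wide range, had no close match outside the group: Cd74, Gbp4, Gbp9, Igf1 and Bgn lay at 1.64 to 1.82, while Fosb lay at 0.98.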

How the data were processed

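Each of the 15 libraries has 1 deposited table. Per the file headers, it gives for each feature the total exon reads, which are whole-number counts with no normalization, and an RPKM value, for which the authors divided by exon length and a read total. Coordinates are on mm10, per the submitters' processing notes; aligner and counting program are unnamed, being not given in the sources used here. Per the labels' protocols, complementary DNA of 100 cells was made into libraries with a kit that does not mark strand. Counts of scaffold copies of a gene were added up, which joined 4540 of 48737 features into 1924 genes and gave 46120 genes, with 28 copies left split.

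All tests used the deposited counts, with edgeR 4.0.16 in R 4.3.3 (TMM, filterByExpr at its defaults, quasi-likelihood test, group as the only term, only the 2 groups compared) and Benjamini-Hochberg adjustment over all tested genes, each log2 fold change being the first-named group minus the second. The common biological coefficient of variation was 0.202, 0.13 and 0.213 in the 5-FU, nifedipine and culture comparisons. The deposited RPKM served for levels between genes. The read total behind it is not the exon read total: exon reads were 30.0% to 31.9% of it after 5-FU, 31.8% to 38.4% with nifedipine, 35.5% to 38.9% in the controls and 25.0% to 26.3% in untreated HSCs, so RPKM shares and ratios were taken within a library. DESeq2 1.42.0, limma 3.58.1 and other filters, scalings and left-out libraries were alternatives. The fits were also run on simulated data with the same dispersion for all genes and few genes changed. The real data differ in both, so that run checks the code and not the p-values given here.

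The members and lists were chosen with earlier results of these data known. Genes named from other lists were the up to 4 called genes with the smallest p per list and comparison; those named for pattern were the 5 nearest among named genes with a mean of at least 10 CPM in a group. The values of Nab2, Crem, Dnajb1, Hspa1a and Hspa1b after 5-FU and of single markers were chosen after they were seen. Single genes that these rules would name are in part not reported here.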

Additional observations from a re-analysis of the deposited data

Results flagged for a closer look

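Among the 30 groups of 4 libraries (10 genes in 3 groups), 4 had a library that stood apart. The gap between that library and its nearest neighbour, as a part of the group's range, was over Dixon's critical value. About 1 in 20 groups would pass it by chance if values were independent and normally spread. Low counts and libraries shared by the genes do not meet this, so the 4 cannot be set against that rate. Junb was lowest in Nifedipine replicate 1, at 1.35 CPM against 2.75 to 2.84 CPM in the other 3, with a gap of 0.937 of the range. Egr2 was highest in Nifedipine replicate 4, at 4.16 CPM against 1.12 to 1.37 CPM, with a gap of 0.918. Egr3 was highest in Nifedipine replicate 2, at 1.05 CPM against 0 in the other 3, with a gap of 1.00. Atf3 was highest in 5-FU replicate 1, at 0.774 CPM against 0.0988 to 0.127 CPM, with a gap of 0.959. The libraries that stood apart for Egr2 and Atf3 moved values given above: without Nifedipine replicate 4 Egr2 passed the test at -1.33, and without 5-FU replicate 1 Atf3 stood at -4.21.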

How the results depend on the processing

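The count of immediate early genes called stayed between 7 and 10 after 5-FU (7 where only genes of at least 10 CPM were tested), 2 and 3 with nifedipine, and 9 and 10 in Control against Untreated, under DESeq2, limma-voom, other scalings, filters, an exon length offset, features as deposited, all groups in 1 fit and each left-out library. Of the log2 fold changes of single genes under these settings, 186 of 188 after 5-FU, 112 of 116 with nifedipine and 164 of 169 in Control against Untreated kept their direction and their side of the threshold. The 1 change of direction was Ier2 with nifedipine, from -0.04 (without Control replicate 1, adjusted p = 0.897) to 0.30 over the left-out libraries, which did not pass in any of them. The cause of these changes was not tested.

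Replicate numbers are shared by the groups, but deviations of same-numbered libraries correlated at only -0.143 to 0.136, so the numbers were not taken as pairs. With the replicate number as a block, 6332 genes were called after 5-FU in place of 6764, 6286 with nifedipine in place of 6396, and 9002 in Control against Untreated in place of 9731. Under that block Fosb passed after 5-FU at -0.70 (adjusted p = 0.0261), and Atf3 in Control against Untreated stood at -3.17 (adjusted p = 0.0629).

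Depth limits Fos, Fosb, Egr3 and Atf3 in cultured cells, each with at most 66 reads a group there, and a difference that did not pass is not shown to be absent. Counts cover reads, not molecules, since no molecular identifiers were used.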
